A study of Mus musculus with 12 samples.

Results

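A set of 183 circular RNAs (circRNAs) stood at least 2 log2 units, a 4-fold difference, above SHAM in the blood of mice after 3 h and again after 24 h of middle cerebral artery occlusion (MCAO). They were chosen among 8844 circRNA probes whose spot was well above background on all 12 arrays, of 14236 circRNA probes on the array in all. A probe was taken when the mean of the 3 arrays at 3 h and the mean of the 3 arrays at 24 h each lay at least 2 above the mean of the 3 SHAM arrays. The differences from SHAM at 3 h and 24 h therefore describe the choice and carry no test here.

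CircRNAs are closed loops of RNA, formed when the end of an exon is spliced back to the start of the same or an earlier exon, or when an intron is kept as a loop. Without free ends they resist exonucleases, and for that reason they last longer than most linear RNAs and can be measured in blood. Many come from genes of neurons, where circRNAs are abundant, but blood cells, above all red cells and platelets, hold many as well. The intraluminal filament used for MCAO stops the blood flow through the middle cerebral artery and leaves an infarct in the cortex and striatum that grows with the duration of the occlusion.

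Whole blood was drawn by cardiac puncture from male Balb/c mice, 8 weeks old per the labels, under isoflurane, and its total RNA was treated with RNase R to remove linear RNA before labelling with Cy3. The 4 groups held 3 arrays each: sham surgery without occlusion (SHAM, labelled 0 h), and MCAO for 5 min, 3 h or 24 h. All groups shared the anaesthesia and surgery, and occlusion and time since surgery cannot be told apart in the contrast with the SHAM group. Values are log2 intensities after background correction and quantile normalisation, and differences between groups are differences of these values. In whole blood, a change in the number of cells of a type and a change of RNA per cell cannot be told apart.

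The arrays were taken to lie on 2 slides, as inferred from the scan times in the file headers. The first held the 3 SHAM arrays, the 3 arrays at 5 min and replicates 1 and 2 at 3 h. The second held replicate 3 at 3 h with the 3 arrays at 24 h. The median raw intensity of negative control spots was 25 to 27 on the first slide and 83.5 to 101 on the second. No spot was saturated, and no member had a spot marked as an outlier. SHAM and 24 h lay wholly on different slides, so that for a difference between them slide and group cannot be told apart except through the 3 h arrays, which lay on both.

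The 183 members were 2.07% of the 8844 probes. At 3 h alone, 213 probes (2.41%) reached a difference of 2, and at 24 h 477 probes did (5.39%). Thus 294 probes were raised at 24 h and less at 3 h, and 30 at 3 h and less at 24 h. The members' median difference from SHAM was 2.52 at 3 h, with a range from 2.00 to 4.49, and 3.35 at 24 h, with a range from 2.01 to 7.46. Over all 8844 probes the medians were -0.12 and -0.18.

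**Figure D1:**
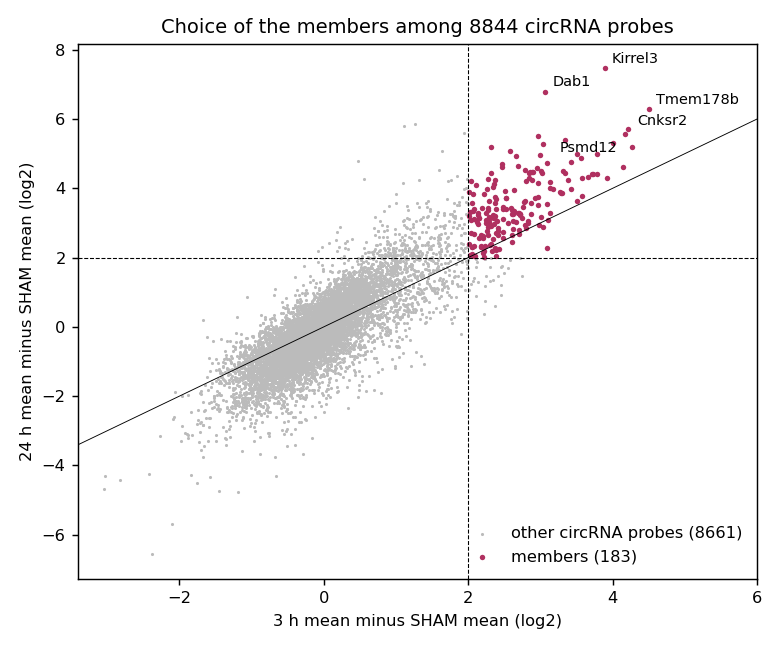
Mean difference from SHAM at 3 h (x axis) against that at 24 h (y axis), both in log2 units, for 8844 circRNA probes; the dashed lines are the threshold of 2 and the thin line marks equal differences. The 183 members fill the upper right corner, and 167 of them lie above the line of equal differences.

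The threshold cut through a continuous range of values. Just inside it lay mmu_circRNA_011696 on chromosome 17 with a difference of 2.00 at 3 h and 2.40 at 24 h, mmu_circRNA_25821 of Wars with 2.00 and 3.90, and mmu_circRNA_27242 of Slmap with 2.21 and 2.01. Just outside it lay mmu_circRNA_24567 of Dnmt3a with 2.31 at 3 h and 2.00 (before rounding, 1.999) at 24 h, mmu_circRNA_30420 of BC004004 with 1.99 and 3.24, and mmu_circRNA_41526 of A230006K03Rik with 1.99 and 3.54.

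In the limma model of all groups, 168 members were called higher than SHAM at 3 h (4.32% of all probes) and 179 at 24 h (15.7%). All 3 arrays lay above all 3 SHAM arrays for 182 members at 3 h (14.7% of all probes) and for 183 at 24 h (20.8%). The rule fixed most of these counts, and nothing is read from them.

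Array by array, the median difference of the members from the SHAM mean was 2.53, 2.95 and 2.24 in replicates 1 to 3 at 3 h and 3.83, 3.49 and 2.81 at 24 h. Each of these 6 medians stood above those of all SHAM and 5 min arrays. At 5 min the medians were 1.80, 0.13 and 0.77, so that replicate 1 came close to the 3 h arrays while replicate 2 stayed at the SHAM level. The members' SDs were accordingly widest at 5 min, with a median of 0.88 against 0.20 at SHAM, 0.46 at 3 h and 0.47 at 24 h. Over all tested probes the median SD at 5 min was 0.29.

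**Figure D2:**
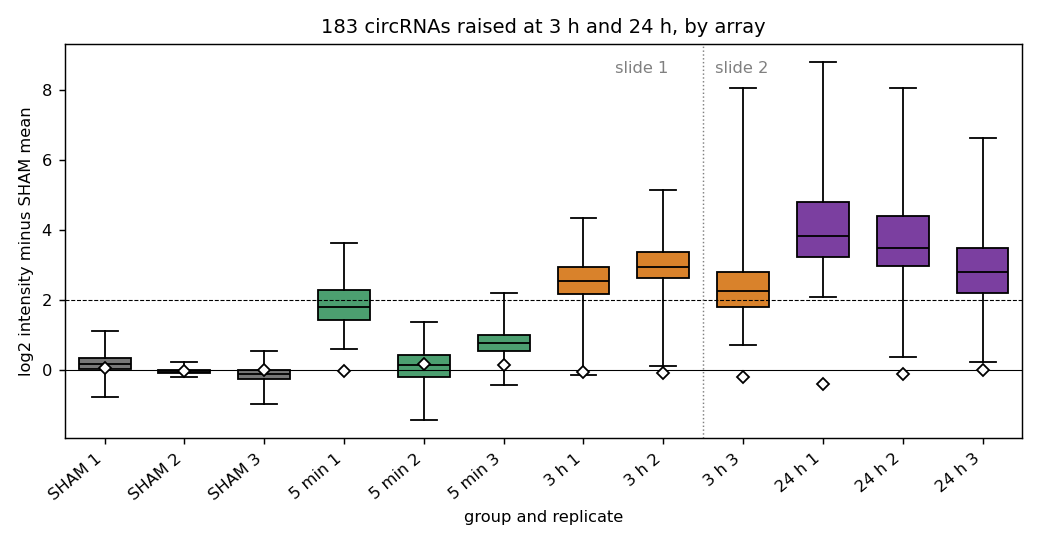
Differences of the 183 members from their SHAM mean (y axis, log2) on each of the 12 arrays (x axis); boxes hold the quartiles and the median, whiskers run from the lowest to the highest member, white diamonds are the medians over all 8844 probes, and the dashed line is the threshold of 2. The boxes at 3 h and 24 h lie apart from those of SHAM, and replicate 1 at 5 min lies between.

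At SHAM, 3 h and 24 h the members' intensities before normalisation come from the arrays that the rule used, and describe the choice. The median raw intensity of the members was 329, 391 and 402 on the SHAM arrays, 3192.5, 3647 and 2228 at 3 h, and 11175.5, 5206 and 2435 at 24 h. Over the same arrays the median over the 8844 probes stayed between 177.5 and 273 (SHAM), 228 and 350 (3 h), or 250 and 369.5 (24 h). At 5 min the members' raw medians were 415, 218 and 295, close to SHAM. The 5 min arrays were dimmer as a whole, with medians over all tested probes of 87.5, 139 and 120.5, and replicate 1, on which the members stood highest after normalisation, was the dimmest of all 12 arrays. The part of this dimness in the members' normalised values at 5 min was not tested.

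**Figure D3:**
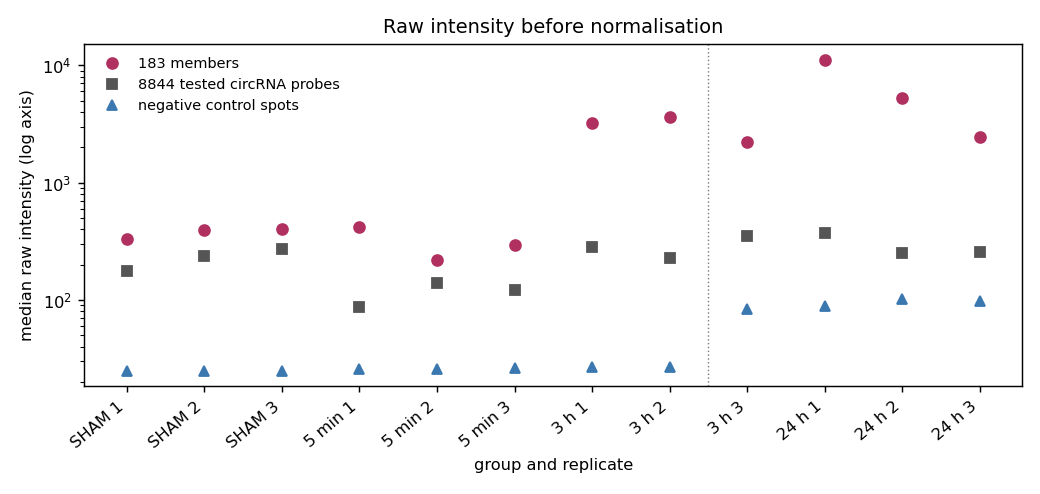
Median raw spot intensity (y axis, log scale) of the 183 members, the 8844 tested probes and the negative control spots on each of the 12 arrays (x axis); the dotted line parts the slides. The members rise from 329 to 402 at SHAM to 2228 or more at 3 h and 24 h, while the negative controls step up from 27 or less to 83.5 or more between the slides.

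Reading each replicate number on arrays whose levels had not entered the rule gave the same direction. These arrays had still entered the filter on background and the normalisation, which used all arrays. When the rule was applied to the other replicates, 193, 161 and 196 probes were chosen for replicates 1, 2 and 3. Read in the replicate left out, they stood above its SHAM array by a median of 2.23, 3.06 and 2.08 at 3 h and of 3.58, 3.60 and 2.83 at 24 h. In the order of the replicates, 120, 133 and 103 of them reached 2 at 3 h, where 2.16%, 4.36% and 3.66% of all tested probes did, and 183, 138 and 159 reached 2 at 24 h, against 8.38%, 5.92% and 3.71%. Not all did: of the 161 probes read in replicate 2, 6 were not above SHAM at 3 h and 8 at 24 h. In replicates 1 and 3, 1 probe each was not above SHAM at 3 h. At 24 h, and for replicate 3 at 3 h, the array read and its SHAM array were taken to lie on different slides. Slide and group cannot be told apart in those reads. Only the reads of replicates 1 and 2 at 3 h stayed within a slide.

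The 183 members were chosen on the same arrays that give their values within a slide, which are thus a description. On the first slide, replicates 1 and 2 at 3 h stood above SHAM by a median of 2.75, and 168 members had a difference of at least 2 there.

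The files give no names, and those used here come from matching the study's list of named circRNAs to the probes by value. In this way 179 of the 183 members were named, and 167 of them lie at an annotated host gene, 160 genes in all. Coordinates are given as that list has them, on mm10, and the list does not say whether starts count from 0 or 1. All 903 circRNAs on that list had been chosen by the study as differentially expressed, so that a count over named circRNAs describes the list and not the array.

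Back-splice junction and probe sequences were not used here. What can be shown are reference sequences at the members' loci, given as descriptions of place. The span of mmu_circRNA_41537, an exonic circRNA of the long non-coding gene A230057D06Rik (chr7:61813261-61916736, minus strand), holds the genes of Mir344 and Mir344c. Its levels were 9.55, 8.95 and 8.63 in SHAM blood and 10.60, 9.77 and 10.05 after 5 min of MCAO. They reached 11.05, 11.45 and 10.77 after 3 h and 11.54, 11.36 and 10.58 after 24 h. The 3 h and 24 h arrays overlapped each other and lay above SHAM. The mature microRNAs (RefSeq, GRCm38.p6, chromosome 7, minus strand) are printed because the seed, bases 2 to 8 and here in capitals, is shared within each arm of the pair.
mmu-miR-344-3p: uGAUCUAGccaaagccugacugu
mmu-miR-344c-3p: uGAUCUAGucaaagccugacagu
mmu-miR-344-5p: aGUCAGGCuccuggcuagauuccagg
mmu-miR-344c-5p: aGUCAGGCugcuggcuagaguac

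The spans of 3 further members hold a microRNA gene: mmu_circRNA_26717 of Arsb with Mir5624, mmu_circRNA_40913 of Foxj2 with Mir7231, and mmu_circRNA_40611, which spans the Foxp1 locus on chromosome 6, with the gene of mmu-miR-12201. A microRNA gene in an intron of the span need not be part of the circRNA, and the array did not measure these microRNAs.

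A circRNA begins with transcription of its host gene. RefSeq promoter windows, from 250 bases before to 50 after the first listed start, were at hand for 119 of the 160 host genes. The letters ACGTG, the core of the element that hypoxia-inducible factors bind, occurred on either strand in 22.7% of these 119 windows and in 19.7% of 27025 windows of all genes. The cAMP response element TGACGTCA, a palindrome, occurred in 2.52% against 1.88%, the former being 3 windows. These shares describe letters only. The windows of Tmem178b, host of the member with the largest difference at 3 h, and of Tasor, host of the highest-ranked chromatin member, are printed as those among the 13 highest-ranked members that have a window with ACGTG or its complement CACGT, in capitals.
Tmem178b, chr6:39871186-39871485, plus strand: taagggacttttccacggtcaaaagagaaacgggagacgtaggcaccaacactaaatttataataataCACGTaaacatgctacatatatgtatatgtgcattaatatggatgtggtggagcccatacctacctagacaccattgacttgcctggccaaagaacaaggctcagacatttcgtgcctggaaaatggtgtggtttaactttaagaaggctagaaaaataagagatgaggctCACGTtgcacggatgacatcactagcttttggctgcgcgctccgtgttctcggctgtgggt
Tasor, chr14:27428584-27428883, plus strand: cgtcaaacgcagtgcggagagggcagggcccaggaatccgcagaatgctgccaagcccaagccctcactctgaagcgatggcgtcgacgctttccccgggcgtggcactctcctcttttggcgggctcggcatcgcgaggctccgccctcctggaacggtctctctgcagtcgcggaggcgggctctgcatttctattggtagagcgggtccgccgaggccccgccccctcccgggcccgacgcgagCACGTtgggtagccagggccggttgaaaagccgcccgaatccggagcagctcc

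The largest mean of both differences belonged to mmu_circRNA_43956, an intronic circRNA of Kirrel3 (chr9:34536915-34538449), whose protein is an adhesion molecule of synapses. Its levels were 6.21, 6.15 and 6.08 in SHAM blood. The 5 min arrays gave 8.70, 6.08 and 6.98, the 3 h arrays 9.73, 10.69 and 9.68, and the 24 h arrays 13.85, 14.22 and 12.77. Every 3 h array lay above every earlier one and every 24 h array above all at 3 h, with differences from SHAM of 3.89 and 7.46.

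The member of Tmem178b, mmu_circRNA_40203 (chr6:40004144-40207533), measured 7.20, 7.01 and 6.95 at SHAM and 10.11, 6.70 and 8.12 at 5 min. The 3 h arrays gave 11.09, 11.91 and 11.64, and those at 24 h 13.03, 13.55 and 13.42. Its difference of 4.49 at 3 h was the largest among the members, and at 24 h it was 6.28. Its 5 min arrays ran from below SHAM to close to the 3 h arrays.

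For Cnksr2, a scaffold of Ras signalling at the postsynaptic density, the exonic mmu_circRNA_45876 (chrX:157888397-157945416) had levels of 6.86, 6.43 and 6.22 in SHAM blood and 9.22, 6.54 and 7.55 after 5 min of MCAO. They reached 10.42, 10.89 and 10.84 after 3 h and 13.17, 12.77 and 10.72 after 24 h. Replicate 3 at 24 h lay within the range of the 3 h arrays, and the other two well above it. A second named circRNA of the gene, mmu_circRNA_45879, went the other way, with differences of -1.71 at 3 h and -3.05 at 24 h and an adjusted p of 0.00291 in limma at 24 h.

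In Dab1, whose product relays the reelin signal that positions migrating neurons, the intronic mmu_circRNA_37286 (chr4:103754180-103764967) rose from 5.82, 5.45 and 5.44 at SHAM to 8.71, 9.68 and 7.51 at 3 h and 13.30, 13.23 and 10.54 at 24 h. Its 5 min arrays, at 7.42, 5.56 and 6.01, were close to SHAM but for replicate 1. The second Dab1 member, mmu_circRNA_37285, begins at the same listed position and ends earlier, at 103755895. It had the differences 2.60 at 3 h and 2.65 at 24 h, so that the longer span gained a further 3.72 between the time points and the shorter 0.05.

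Psmd12 encodes a subunit of the lid of the proteasome, the protease of ubiquitin-tagged proteins. Its mmu_circRNA_24344 (chr11:107485549-107489072) measured 7.56, 6.82 and 6.41 in SHAM blood. The 5 min arrays gave 10.57, 7.86 and 8.86, the 3 h arrays 10.74, 11.22 and 11.33, and the 24 h arrays 13.12, 12.90 and 11.42. All 5 min arrays lay above all SHAM arrays, and replicate 1 there came close to the 3 h arrays.

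Rad54b, which acts in DNA repair by homologous recombination, gave mmu_circRNA_36481 (chr4:11593620-11605005) with differences of 4.27 and 5.20, and Samd8, a ceramide phosphoethanolamine synthase, gave mmu_circRNA_27197 (chr14:21774962-21780181) with 4.15 and 4.62. Rad54b reached 13.80, 14.63 and 12.79 at 3 h from 9.39, 9.53 and 9.51 at SHAM, and Samd8 reached 14.32, 14.97 and 13.34 from 10.05, 10.07 and 10.08. For both, the arrays at 24 h overlapped those at 3 h.

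Kcnma1, the pore of the large-conductance calcium-activated potassium channel, gave mmu_circRNA_010777 (chr14:23494538-23509900), at 10.89, 11.56 and 9.95 at 3 h and 12.61, 12.17 and 11.50 at 24 h from 7.13, 6.63 and 6.61 at SHAM. Xdh, which makes uric acid and can form reactive oxygen species, gave mmu_circRNA_30884 (chr17:73906009-73907745), at 9.95, 10.18 and 10.01 at 3 h from 7.06, 6.62 and 6.45 at SHAM. At 24 h the Xdh member was at 13.26 and 12.74 in replicates 1 and 2 and at 10.28 in replicate 3, hardly above 3 h.

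**Figure D4:**
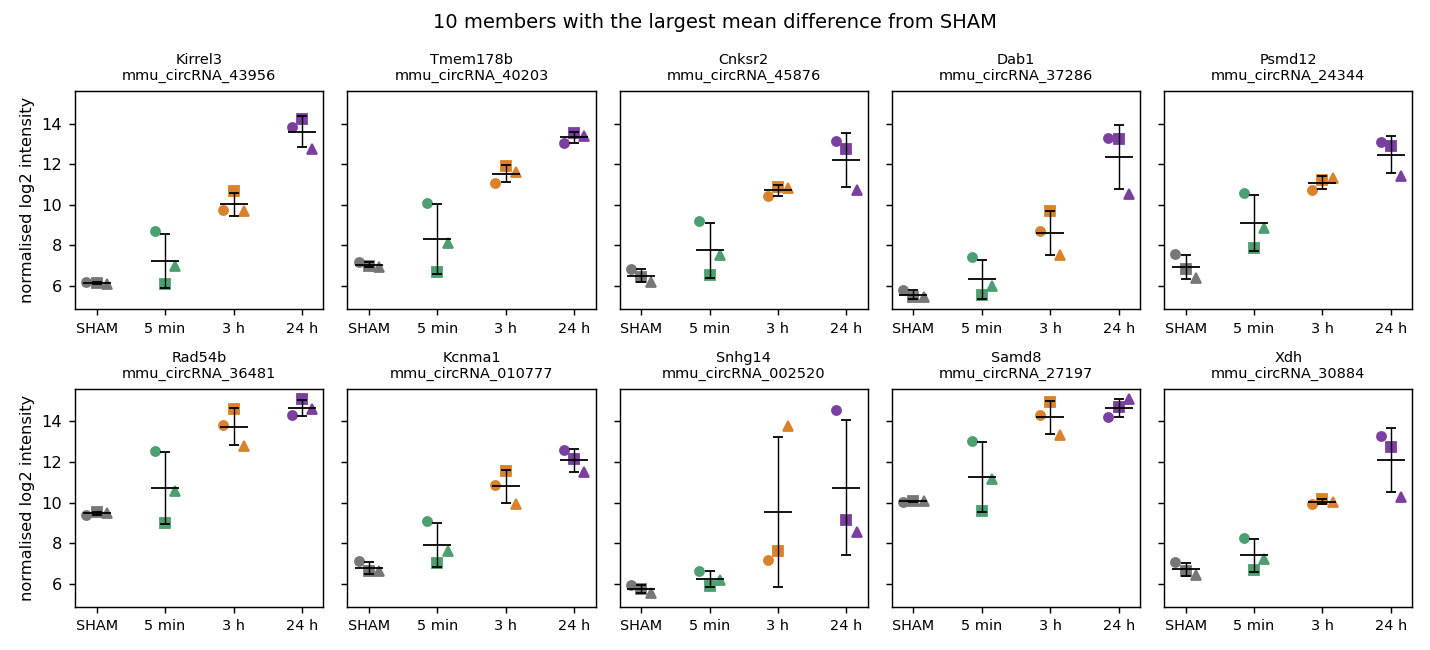
Normalised log2 intensity (y axis) of the 10 members with the largest mean of the differences at 3 h and 24 h, by group (x axis); circles, squares and triangles are replicates 1, 2 and 3, and the bars give the mean and SD. In each panel the 3 h and 24 h arrays lie above SHAM, and in Snhg14 replicate 3 at 3 h (13.79) and replicate 1 at 24 h (14.55) stand alone.

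In a small subset, 2 arrays stood far above the others of their groups. The member of Snhg14, a long non-coding RNA that hosts clusters of small nucleolar RNAs, mmu_circRNA_002520 (chr7:59507338-59568724), was at 7.16 and 7.63 in replicates 1 and 2 at 3 h but at 13.79 in replicate 3, and at 14.55 in replicate 1 at 24 h but at 9.12 and 8.53 in the others. In 9 members, including this, replicate 3 at 3 h and replicate 1 at 24 h each exceeded the other arrays of their group by at least 2. The same held for 140 of all 8844 probes (1.58%), against 4.92% of the members. Besides that of Snhg14, they included those of Capn11 and Sema4a and all 4 members without a name. For the unnamed probe ASCRP4000406 no other array at 3 h or 24 h stood more than 0.38 above the SHAM mean, and for ASCRP4010539 none more than 1.05. Both arrays lay on the second slide. Without them 183 probes met the rule, 161 of them members, so that 22 members missed it. Leaving out replicate 2 at 3 h alone kept fewer members, 150.

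Members were then grouped by the function of the host gene, with 88 of the 183 in a list. Of 30 named circRNAs from genes of the synapse, neuronal adhesion and axon guidance, 20 were members, from 18 genes. Over all 852 named circRNAs that were tested, 21.0% were members, but the lists were chosen with earlier results known, so that their higher shares are not a result about the functions. The 20 had median differences of 2.60 at 3 h and 3.19 at 24 h, which the rule kept at 2 or more. Next to Kirrel3, Cnksr2 and Dab1, the highest-ranked was mmu_circRNA_22421 of Anks1b, a postsynaptic density protein, with differences of 2.96 and 4.59. The rest included Synj2, Crmp1 and the presynaptic neurexin Nrxn3, with differences at 24 h from 2.03 upwards.

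Ion channel genes gave 7 members of 14 named circRNAs. Besides Kcnma1 these included Cacng3, an auxiliary protein of calcium channels and AMPA receptors, with 3.03 at 3 h and 5.27 at 24 h, and the voltage-gated potassium channels Kcnc4, with 2.97 and 3.74, and Kcnc1, with 2.28 and 3.64. Levels of the Kcnc4 member were 11.11, 10.40 and 10.10 at SHAM, 13.36, 13.60 and 13.55 at 3 h, and 14.37, 14.54 and 13.92 at 24 h, with no overlap between these groups. The calcium channel pores Cacna1c and Cacna1h were members with lower ranks, and over the list the 3 h differences ran from 2.01 to 4.01.

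Glutamate, amino acid and G protein signalling gave 7 members of 10 named circRNAs, in the narrow range of 3.13 to 4.01 at 24 h. Grk2, the kinase that silences active G protein-coupled receptors, had 3.17 at 3 h and 3.99 at 24 h. Gng2, a gamma subunit of G proteins, had 3.13 and 4.01, and the adenylyl cyclase Adcy2 2.93 and 3.72. Gls2, a glutaminase, had 2.71 and 3.22. The list also held members from Slc1a4 and Slc38a1, transporters of neutral amino acids.

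Of 12 named circRNAs from genes of glucose and energy metabolism, 9 were members. Hexokinase, the first step of glycolysis, was present with Hk2, at 3.42 at 3 h and 3.99 at 24 h, and with Hk1, at 2.26 and 3.97. The Hk2 member lay at 13.50, 13.73 and 13.76 at 3 h and 14.07, 14.41 and 14.20 at 24 h from 10.46, 10.20 and 10.06 at SHAM, with little spread among replicates. The Hk1 member stood a further 1.71 higher at 24 h than at 3 h on average, but its replicate 3 at 24 h (10.55) lay inside the range of the 3 h arrays. Dhtkd1, a mitochondrial dehydrogenase subunit, had 2.85 and 4.47, and Ppargc1a, a coactivator of mitochondrial genes, was a member as well.

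Regulators of small GTPases gave 11 members of 24 named circRNAs. Their medians, the highest of the 7 function lists, were 3.03 at 3 h and 4.29 at 24 h, against 2.52 and 3.35 over all members. The rule had used these differences, so that the order of the lists is not a result about the functions. Prex1, an exchange factor for Rac found in neutrophils and neurons, had 3.66 and 4.33. Rasa3, a Ras inhibitor of platelets and other blood cells, had 3.42 and 4.75. Micall1 and Ehbp1, both of endocytic traffic, had 3.57 and 4.28, and 3.34 and 4.43. Of the 24, 14 were called higher at 24 h by limma's adjusted p and 8 lower, in a comparison the rule had used, where 55.9% of all named circRNAs were called higher and 37.1% lower. In the same order of higher and lower, the synapse list had 25 and 3, the ion channels 11 and 2, glutamate and G protein signalling 9 and 1, and energy metabolism 9 and 3.

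Genes of the centrosome, spindle and cilium gave 15 members of 19 named circRNAs, on a list of 20 genes of which 14 were hosts of members. After Rad54b, a gene of DNA repair that the list includes, stood Spice1, needed for centriole duplication, with 3.73 and 4.41, Nudc, a partner of dynein, with 2.58 and 5.06, and Wdr11, a trafficking protein linked to cilia, with 3.13 and 4.18. Genes of chromatin and transcription gave 19 of 28, led by Tasor, a subunit of the HUSH silencing complex, with 3.56 and 4.87. Adarb2, a brain relative of the RNA-editing deaminases, followed with 2.88 and 4.25, Edrf1 with 3.09 and 3.55, and Cpeb3, a translational regulator at synapses, with 2.86 and 3.58. At 24 h, 16 and 21 of the 2 lists were called higher, and 2 and 6 lower. Medians of both lists were close to those of the synapse list, 2.63 and 2.60 at 3 h and 3.38 and 3.08 at 24 h.

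**Figure D5:**
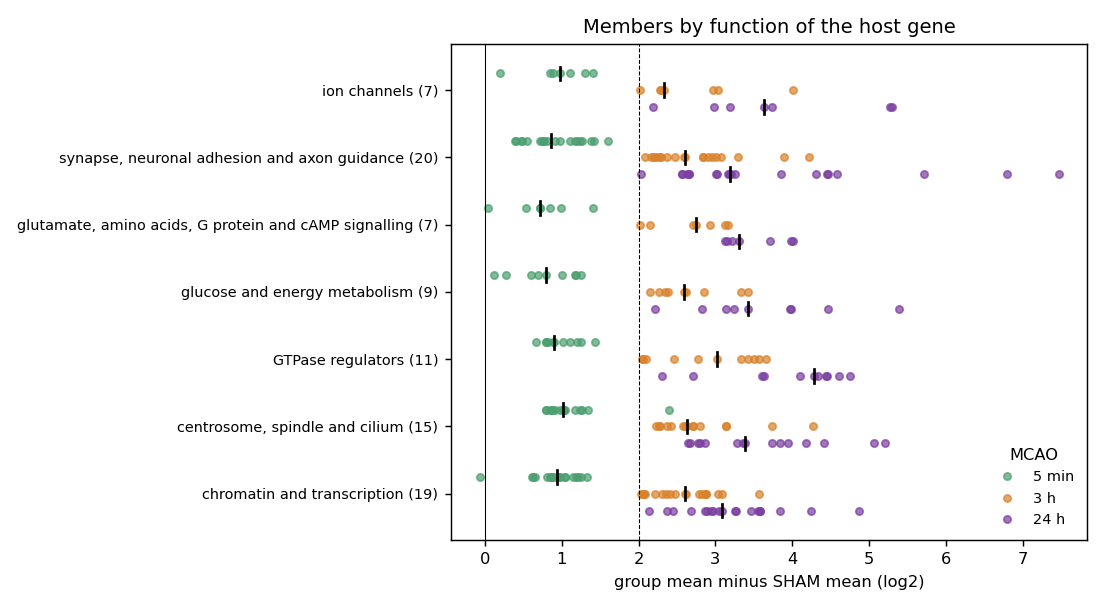
Group mean minus SHAM mean (x axis, log2) after each duration of MCAO, shown by colour, for members in 7 lists of host gene functions (y axis, number of members in brackets); points are circRNAs, black bars list medians, and the dashed line is the threshold of 2 that applied at 3 h and 24 h. The 24 h medians run from 3.08 to 4.29, and the 5 min points lie mostly between 0 and 1.6.

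Marker genes of blood cells could hardly be followed, because only named circRNAs can be assigned. Of the platelet list only F13a1 had a named circRNA, which was not a member and was called lower at 24 h, and none of the neutrophil, monocyte and lymphocyte lists had any. The erythroid list is not reported here. Of the list of neuronal and glial genes 6 of 20 had named circRNAs, 7 in all, and 5 of these were members, from Cnksr2, Cacng3, Crmp1, Kcnc1 and Tnr. Of all named circRNAs tested 21.0% were members, but this list too was chosen with earlier results known, so that its share is not a result. At 24 h, in a comparison the rule had used, 6 of the 7 were called higher and 1 lower, mmu_circRNA_45879 of Cnksr2 at -3.05. Of all named circRNAs tested, 55.9% were called higher there and 37.1% lower. The member of Crmp1, a mediator of semaphorin signals in axons, had differences of 2.84 and 4.45. A host gene on a brain list does not show that the circRNA came from brain, and the cell of origin was not tested.

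Of the 160 host genes 7 gave 2 members each. In Asxl3, Cables1, Cep85 and Dab1 the pair shares a listed junction end and overlaps, so that the probes of a pair are not independent. The Cables1 pair was alike, with 2.27 and 2.38 at 3 h and 3.42 and 3.41 at 24 h, as was the Asxl3 pair, with 2.78 and 2.60 at 3 h and 2.94 and 2.45 at 24 h. The Cep85 pair differed at 24 h: mmu_circRNA_37769 measured 12.47, 12.41 and 11.95 there and 10.79, 11.09 and 11.02 at 3 h, while mmu_circRNA_37770, with the same start and a later end, measured 11.02, 10.85 and 10.05 and had 11.03, 11.47 and 9.52 at 3 h. The pairs of Adarb2, Synj2 and Snhg14 do not overlap. In Synj2, an inositol phosphatase, they had 2.90 and 4.46, and 2.60 and 3.25.

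For 15 host genes a further named circRNA was tested that was not a member. Of these 18 circRNAs, 7 were above SHAM at 24 h by less than the member of the same host, 4 by more, and 7 lay below SHAM. The highest was that of Adck1, with 1.11 at 3 h and 5.79 at 24 h, where the member of Adck1 had 2.95. Besides that of Cnksr2, those below SHAM at 24 h included the ones of Corin, at -2.59, and Epha5, at -1.73, and all 3 of Gm20754, at -0.94, -1.67 and -1.41.

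By type, 121 of the 179 named members were exonic (67.6%), 33 overlapped a gene on its strand without matching its exons (18.4%), 14 were intronic (7.82%), 6 antisense (3.35%) and 5 intergenic (2.79%). Among the 286 named circRNAs raised at 24 h and less at 3 h, exonic ones were 72.4% and sense overlapping ones 12.6%, and among the 673 named circRNAs that were tested and not members 74.9% and 14.6%. The exonic members spanned a median of 10146 bases between the junction ends, against 15397 for those raised at 24 h and less at 3 h. Chromosome 7 held 16 members and chromosome 14 held 14, which is 8.94% and 7.82% of the members against 5.99% and 3.76% of the named circRNAs tested. Among the 14 were those of Kcnma1, Samd8, Tasor, Enox1, Ptk2b and Gng2. On the array itself the members were spread evenly, with 93 of 183 in the upper rows, where 49.8% of all tested probes lay.

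In SHAM blood the members were neither the faintest nor the brightest probes, with a median level of 8.43 against 7.60 over all tested probes and a range from 4.83 to 12.59. Probe levels depend on the probe, so that they order no circRNA against another.

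The arrays at 5 min had no part in the rule, though the SHAM arrays of this comparison did, and a low SHAM mean favoured both the choice and a difference above 0 here. The members' median difference at 5 min was 0.91, from -0.25 to 2.40, and 180 of 183 were above 0, where the median over all probes was 0.11. By limma's adjusted p of at most 0.05, 4 members were higher than SHAM, 2.19% of the members against 2.95% of all probes, and 0 lower, against 4.60% of all. At an unadjusted p below 0.05 there were 65 members higher, 35.5% against 15.6%. All 3 arrays at 5 min lay above all 3 SHAM arrays for 68 members (24.5% of all probes), and in 182 members replicate 1 was the highest of the 3 (45.1% of all probes) while in 180 replicate 2 was the lowest (39.3%). The difference between the 5 min replicates was thus common to nearly all members.

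The largest of the 4 calls was mmu_circRNA_42362 of Wdr11 (chr7:129629917-129632421), at 9.32, 8.05 and 7.24 at SHAM and 11.83, 9.57 and 10.41 at 5 min. Its difference was 2.40 (SE 0.64, limma adjusted p = 0.0426), and at 3 h the levels of 11.03, 11.51 and 11.46 overlapped those at 5 min. Psmd12 had 2.17 (SE 0.61, limma adjusted p = 0.0490). The intronic mmu_circRNA_30666 of C3, the central component of complement (chr17:57218564-57218671), was unlike most members in its close 5 min replicates: it measured 9.37, 9.06 and 8.89 at SHAM and 10.31, 9.95 and 10.25 at 5 min. The 3 h arrays gave 11.19, 11.33 and 11.04, and those at 24 h 12.25, 12.57 and 11.85. No groups overlapped, and the step at 5 min was 1.06 (SE 0.29, limma adjusted p = 0.0461). The antisense mmu_circRNA_38907 at Ugt2b34 had 1.04 (SE 0.29, limma adjusted p = 0.0476).

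These calls rested on the fit. Leaving out single arrays, those of other groups included, gave between 0 and 30 calls. There were 0 without replicate 2 or 3 of SHAM, replicate 1 or 3 at 5 min, replicate 1 or 2 at 3 h, or replicate 2 at 24 h, and 20, 30, 22 and 9 without replicate 1 of SHAM, replicate 2 at 5 min, and replicates 1 and 3 at 24 h. Without replicate 1 at 5 min the median member difference was 0.45. With the arrays weighted by limma, 159 members were called, and 49.3% of all probes.

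Between 3 h and 24 h, whose arrays had all entered the rule, the members' median difference was 0.78, from -0.81 to 3.72, and 167 of 183 were higher at 24 h. Over all probes the median was -0.04. By limma's adjusted p of at most 0.05, 18 members were higher at 24 h (2.80% of all probes) and 0 lower (2.36%). At an unadjusted p below 0.05 there were 69, 37.7% of the members against 9.93% of all probes. All 24 h arrays lay above all 3 h arrays for 70 members (11.3% of all probes). The 16 members that were not higher at 24 h were led by Ndrg2, a stress-responsive gene of astrocytes and other cells, at -0.81.

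The largest gains after 3 h belonged to Dab1, with 3.72 (SE 0.72, limma adjusted p = 0.0169), and Kirrel3, with 3.57 (SE 0.57, limma adjusted p = 0.0103). Pcnx came next: mmu_circRNA_19073 (chr12:81894979-81913476) measured 7.52, 7.86 and 9.15 at 3 h and 11.23, 11.31 and 10.64 at 24 h, a gain of 2.88 (SE 0.46, limma adjusted p = 0.0103). Among others already described, Nudc gained 2.49 (SE 0.61, limma adjusted p = 0.0349) and Cacng3 2.24 (SE 0.50, limma adjusted p = 0.0241). Wars, a tryptophan tRNA ligase just above the threshold at 3 h, gained 1.89 (SE 0.41, limma adjusted p = 0.0221). Of the 18, 8 were sense overlapping, 6 exonic, 3 intronic and 1 antisense. Over all named members these types made up 18.4%, 67.6%, 7.82% and 3.35%, and a difference in type was not tested.

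Time and slide overlapped in this comparison. With the slide as a fixed term 0 members were called, although the median gain was then 1.20. That gain is by construction the one on the second slide alone, the 24 h arrays minus the single replicate 3 at 3 h, and 174 of 183 members were above 0 in it. Without replicate 1 at 3 h, or without replicate 2 at 24 h, 0 members were called, 7 were without replicate 2 at 3 h, 41 without replicate 1 at 5 min and 42 without replicate 3 at 24 h.

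Against 5 min, all 183 members were higher at 3 h and at 24 h, by medians of 1.70 and 2.62. The choice favours this direction, since it asked for high values at both later times. By limma's adjusted p of at most 0.05, 57 members were higher at 3 h than at 5 min (1.67% of all probes) and 172 at 24 h (12.6%), with 0 lower in either (0.837% and 18.1% of all probes). The groups did not overlap for 126 members at 3 h (14.3% of all probes) and 167 at 24 h (17.8%). The count at 3 h was 138 without replicate 1 at 5 min, 102 without replicate 1 at 24 h, 34 without replicate 3 of SHAM, 13 without replicate 2 at 24 h, and 0 without replicate 2 of SHAM, replicate 2 or 3 at 5 min, or replicate 1 or 2 at 3 h. At 24 h it stayed between 149 and 175 whichever array was left out, and was 56 with the slide as a fixed term.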

How the data were processed

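Whole-blood RNA of 12 samples in 4 groups of 3 was measured on one-colour circRNA arrays (Arraystar Mouse circRNA Array v2). For each array the authors deposited the scanner output (Agilent Feature Extraction 11.0.1.1), in which spot and local background values are intensities on a linear scale, and the software's flags. The authors also deposited a table of log2 values, quantile normalised between arrays, which was used as an alternative. Groups and replicate numbers came from the labels.

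Spot medians were corrected by normexp with the local background median (offset 0), quantile normalised over all spots and brought to log2 in limma 3.58.1 with R 4.3.3. A circRNA probe was tested if the software flagged it as well above background on all 12 arrays. Members had a group mean at least 2 above the SHAM mean at 3 h and at 24 h. Other contrasts came from a limma model of the 4 groups (8 residual degrees of freedom, trended prior, two-sided, Benjamini-Hochberg over all 8844 probes, threshold 0.05), which was tested on simulated data. Standard errors (SE) are those moderated by limma. Permuting 3 against 3 arrays cannot give a two-sided p below 0.1, so no permutation test was used. The number of arrays limits the precision. The labels do not say that the replicates of a group were separate mice, though the paper calls them biological replicates. The p-values measure only the spread between these arrays.

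The 903 circRNAs of the study's supplementary list were each matched to a probe by value, in the log2 values normalised here. A match had the same mean over all 12 arrays and the same difference from SHAM (largest difference 0.000499, next probe at least 0.008 away). Symbols were checked against RefSeq genes at the listed place, which corrected or updated 12 members, left 11 with none listed and dropped 1 that lay elsewhere. Host gene lists were matched by symbol or synonym. The results of some genes are not reported here.

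Members, lists and tests were chosen with earlier results of these data known. The members named are the 10 with the largest mean of both differences, those nearest the threshold, at most 4 a list, those of hosts with 2 or more members, those called at 5 min or between 3 h and 24 h (at most 3 a direction, the fourth call at 5 min, Ugt2b34, and a few others being added after their values were seen), and those the study names. Alternatives were other background corrections, normalisations and filters, the deposited log2 table, slide and replicate terms, the compared groups alone, array weights, no trend, and leaving out each array.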

Additional observations from a re-analysis of the deposited data

Results flagged for a closer look

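For 6 named members the difference between 24 h and 3 h was past the threshold of limma's test. The arrays of both groups had all entered the rule, so that these values describe chosen members. The difference was 3.57 for Kirrel3, 3.72 for Dab1, 2.24 for Cacng3, 2.49 for Nudc, 2.88 for Pcnx and 1.89 for Wars, in every case higher at 24 h. Their adjusted p-values were 0.0103, 0.0169, 0.0241, 0.0349, 0.0103 and 0.0221. Of 25 alternatives each, Kirrel3, Dab1, Pcnx and Wars stayed past the threshold in 21, Cacng3 in 19 and Nudc in 16, with adjusted p-values between 3.33e-08 (array weights) and 0.288 over the 6, and all 6 lost it with the slide as a fixed term, with the compared groups alone, without replicate 1 at 3 h and without replicate 2 at 24 h.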

How the results depend on the processing

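The number of circRNAs that met the rule was 183 and ranged from 136 to 268 over the alternatives, all within 1.5 times, and from 157 to 203 with single arrays left out. The members' median stayed above 0 at 3 h and 24 h in every alternative, which the rule on these same arrays largely fixed. With single arrays left out it ran from 2.33 to 2.75 and from 3.12 to 3.68. It moved by more than the spread between arrays at 3 h in members chosen without replicate 2 or 3 and read in it (3.06 and 2.08), and at 24 h with the slide as a fixed term (4.04). Under that term mmu_circRNA_002520 of Snhg14 turned to -1.41 at 24 h, the 3 h arrays alone setting the step between slides. Counts of calls were less steady. At 5 min, 4 members were called, against 2 with cyclic loess, with quantiles over the circRNA probes alone and with the filter on negative controls, 7 with the processed signal over the 75th percentile, and 8 with the slide as a random block and with no trend; single arrays left out gave 0 to 30. Between 3 h and 24 h, 18 were called, against 0 with the slide as a fixed term and with only these groups, and 11 with the slide as a random block; single arrays left out gave 0 to 42. Between 5 min and 3 h, 57 were called, against 16 with only these groups; single arrays left out gave 0 to 138. Between 5 min and 24 h, 172 were called, against 56 with the slide as a fixed term; single arrays left out gave 149 to 175. The cause of these changes was not tested. With limma's array weights, 159 members were called at 5 min (49.3% of all tested probes), 117 between 3 h and 24 h (27.8%), 177 between 5 min and 3 h (28.2%) and 180 between 5 min and 24 h (35.6%). These weights, from limma's gene-by-gene method, chosen after seeing the data because the default did not converge, ran from 0.0879 to 19.6 over the 12 arrays. Deviations of same-numbered arrays correlated from -0.46 to 0.49, so that they were taken to share only a number and not a pairing. With the replicate block, 13 members were called at 5 min, 93 between 5 min and 3 h, 22 between 3 h and 24 h and 176 between 5 min and 24 h.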
